A study of Mus musculus with 18 samples.

Results

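The ankle joint was compared between mice that received monosodium urate (MSU) crystals and mice that received phosphate-buffered saline (PBS), across the whole transcriptome of the tissue. The samples were chosen by their labels alone, as the 3 ankle libraries labelled MSU and the 3 ankle libraries of the control animals, 6 of the 18 libraries of a series that also holds dorsal root ganglia and spinal cord. All animals were C57BL/6 mice aged 10 weeks, and each received 100 µl at the right ankle joint by an injection that the protocol calls subcutaneous. Tissue was taken 8 h later. The characteristics of the controls read "untreated", while PBS is what the protocol and the design text name for them, so their libraries are called PBS here. The titles call the controls WT and give no genotype for the MSU libraries. No transgene or gene deletion is labelled in either group. The labels do not say whether each library came from 1 animal. The p-values below set the difference between groups against the spread between these libraries, which may not be that between animals. The sample is a whole joint region, and markers of epidermis, fat, skeletal muscle, bone, cartilage, synovium, vessels, nerve and bone marrow were all measured in it.

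MSU crystals are the deposits of gout. Phagocytes that take them up activate the NLRP3 inflammasome and release interleukin-1, which draws neutrophils into the joint. The joint itself is built by resident cells: synovial fibroblasts that make lubricant and matrix, tendon and cartilage cells, osteoblasts and osteocytes that lay down and sense bone, osteoclasts that resorb it, and, around it, skin, subcutaneous fat, muscle, vessels and nerves. In bulk RNA a lower transcript level may mean fewer cells of a type or less of that RNA per cell, and the 2 cannot be told apart here. Levels are also relative: a gene's level is given as CPM, its count scaled to the size of the library, so transcripts of cells that enter the tissue and those of cells that stay share 1 total.

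The total count was 13818618 to 38812815 in the PBS libraries and 11632950 to 25214641 in the MSU libraries. The first principal component held 71.6% of the variance and separated the groups without overlap. Of 17690 tested genes, edgeR called 3823 higher (21.6%) and 3833 lower (21.7%) with MSU at an adjusted p under 0.05. Changes of at least 2-fold were called for 1504 genes higher (8.5%) and 1808 lower (10.2%), and in 55.9% of the tested genes no MSU library lay within the range of the PBS libraries, nor the reverse. The median log2 fold change over all tested genes was -0.02, and each median and count of a list below is to be read against these values. Some libraries stood apart. PBS 2 was high in bone marrow precursor transcripts, PBS 1 was low and MSU 2 high for their groups in hair follicle transcripts, PBS 1 was high in mast cell transcripts, MSU 1 was high in bone transcripts and MSU 3 in synovial and tendon transcripts.

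The tissue was read through 63 lists of genes in 9 classes. The lists held 1056 distinct genes, of which 1028 passed the count filter, 246 were higher and 271 were lower. Skin genes fell in 42 of 71 cases (59.2%), fat and lipid genes in 42 of 72 (58.3%) and muscle genes in 19 of 32 (59.4%), while 4, 4 and 1 of them rose. Stromal and bone genes moved both ways, with 33 of 140 higher and 51 lower. Blood cell genes were higher in 29 of 121 cases (24.0%) and lower in 8 (6.61%). Genes of basic cell functions rose in 80 of 278 cases (28.8%) and fell in 8 (2.88%). Most of those rises were in 4 lists, with 20 in ribosome biogenesis, 23 in the proteasome, 16 among the aminoacyl-tRNA synthetases and 11 in glycolysis.

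**Figure D1:**
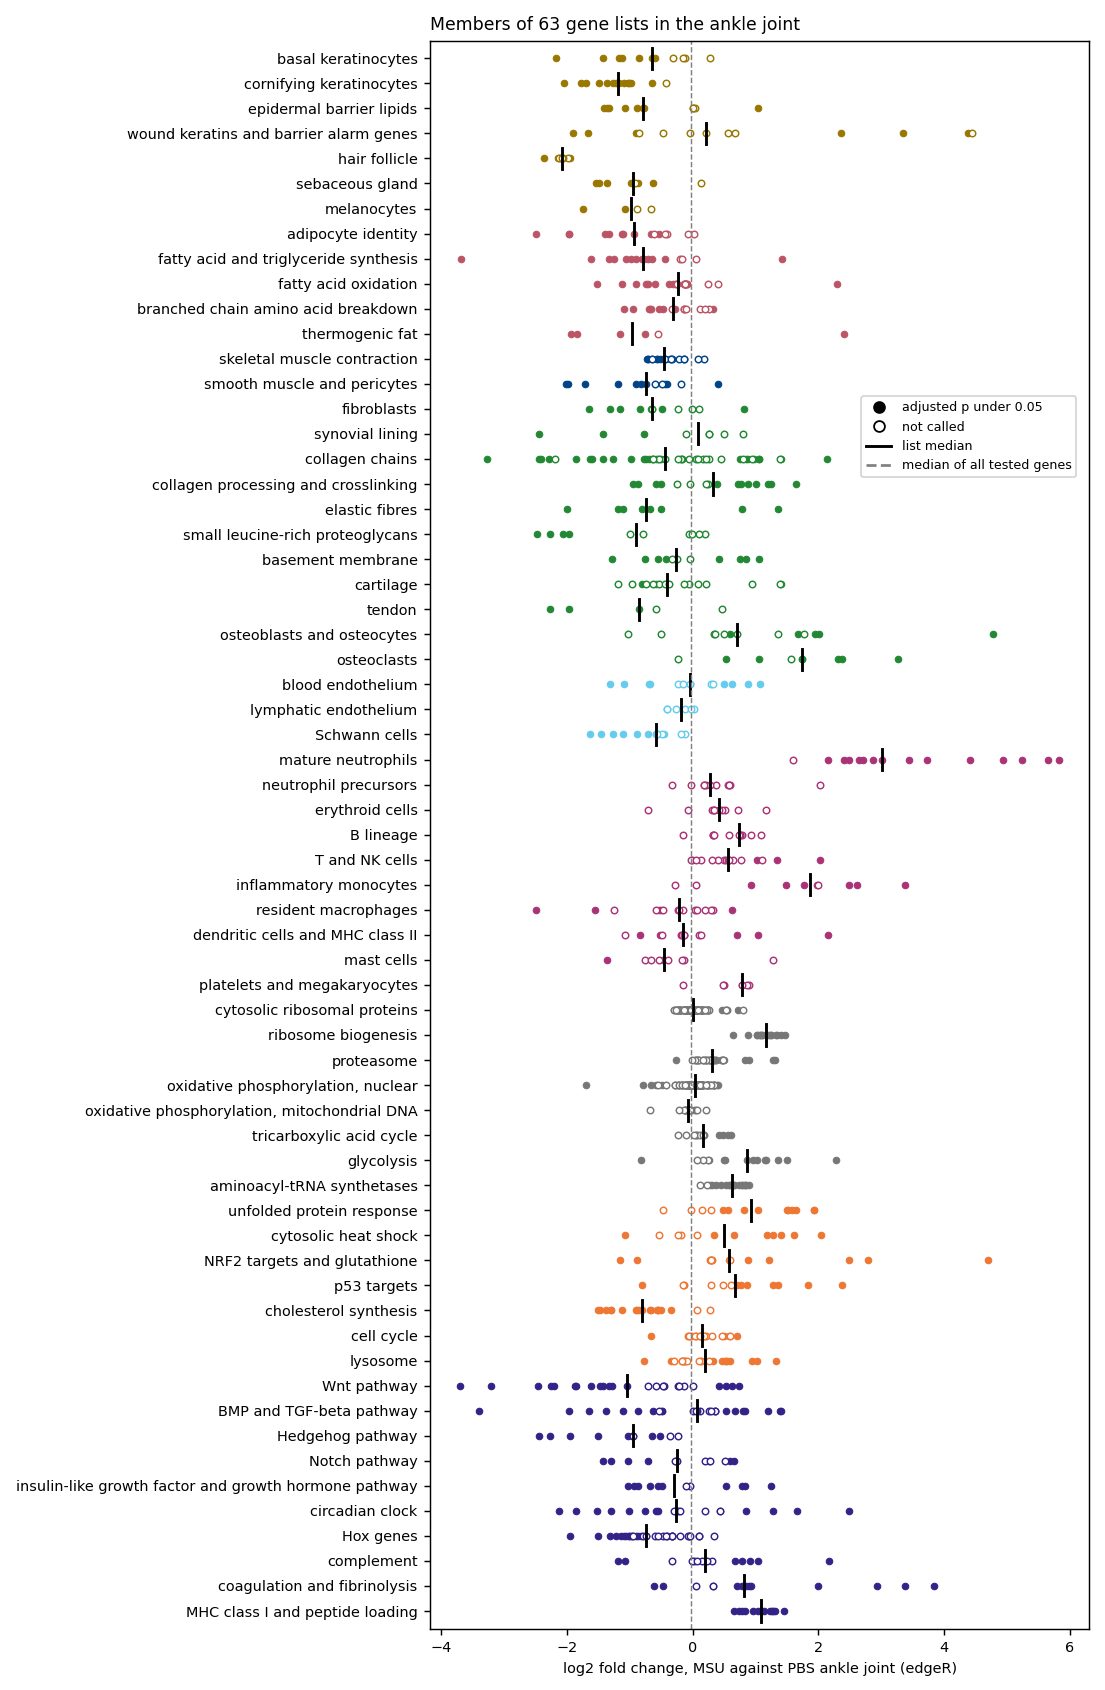
Log2 fold change of each tested member (points) of the 63 lists, MSU against PBS, with 3 libraries a group; filled points passed the edgeR test, black bars are list medians and the dashed line is the median of all tested genes, -0.02. Skin, fat and muscle members lie mostly to the left, mature neutrophil and osteoclast members to the right, and the collagens spread over both sides.

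The 15 largest rises were genes of neutrophil production and attraction, acute phase proteins and inflammatory enzymes. Cxcl3, a chemokine that binds the neutrophil receptor CXCR2, stood at 0.46, 0.157 and 0.275 CPM in the PBS libraries and at 118, 333 and 681 CPM in the MSU libraries (log2 fold change 10.16, SE 1.12, adjusted p = 0.00276). Il6, the cytokine that drives the acute phase response, stood at 0.46, 0.432 and 0.275 CPM against 335, 282 and 555 CPM (9.87, SE 0.40, adjusted p = 1.49e-05). Both groups of each gene are far apart, and Cxcl3 varied more among the MSU libraries than Il6 did. Acod1, which makes the macrophage metabolite itaconate, rose from 2.83, 1.3 and 1.72 CPM to 310, 684 and 892 CPM. Nos2, the inducible nitric oxide synthase, rose from 1.84, 1.65 and 2.06 CPM to 291, 266 and 276 CPM, and its 3 MSU libraries lay close together. The others were Csf3, Saa1, Saa2, Saa3, Cxcl1, Cxcl2, Cxcl5, Ccl3, Ccl4, Ptx3 and Il1b.

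The 15 largest falls included enzymes, receptors, channels, ligands and matrix proteins. Cyp2e1, a cytochrome P450 that is expressed in fat as well as liver, stood at 29.9, 44.6 and 36.2 CPM in the PBS libraries and at 1.12, 1.36 and 1.88 CPM with MSU (log2 fold change -4.71, SE 0.24, adjusted p = 5.77e-06). Cd209g, a C-type lectin gene of the DC-SIGN family, stood at 12.6, 8.21 and 14 CPM against 1.58, 1.66 and 0.376 CPM (-3.19, SE 0.42, adjusted p = 0.000554). Every MSU library was below every PBS library for both. Gdf10, a ligand of the transforming growth factor beta family, fell from 105, 75.1 and 84.5 CPM to 11.4, 5.36 and 7.9 CPM. Acvr1c, which encodes the activin receptor ALK7 of fat cells, fell from 16.8, 12.5 and 19.4 CPM to 1.45, 0.754 and 1.6 CPM. Receptors and channels among the falls were Uts2r, the urotensin receptor (-3.14), Npy1r, a neuropeptide Y receptor (-3.12), and Kcna2, a voltage-gated potassium channel (-3.09). Inmt, Pck1, Skint7, Col8a2, Spon2, Hs3st6, Lrrc17 and Slc6a7 made up the rest.

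**Figure D2:**
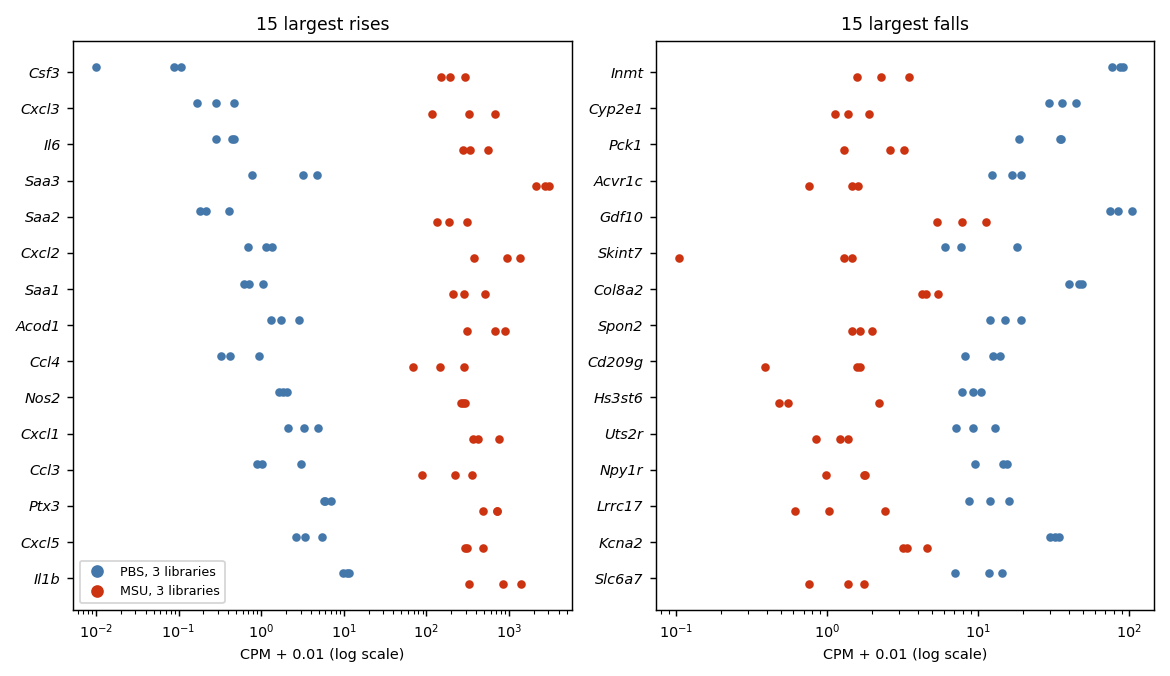
CPM plus 0.01 on a log axis of the 15 largest rises (left) and 15 largest falls (right) in each of the 3 PBS (blue) and 3 MSU (red) libraries. The groups do not overlap for any of the 30 genes, which the rule for naming them required.

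The promoters of the first genes of each direction that held a searched motif are shown here because the largest rises and falls can be set side by side at the level of sequence. Each is the 250 bases before the annotated start, from RefSeq on the GRCm38.p6 build, read 5′ to 3′ on the gene's strand. Capitals mark matches, on either strand, to 6 motifs: NF-kB (GGGANTTTC), C/EBP (TTGCNNAA), interferon response (GAAANNGAA), activator protein 1 (TGANTCA), E box (CACGTG) and hypoxia core (ACGTG, which every E box also contains). The windows lie at chr5:90785851-90786100 (+) for Cxcl3, chr5:30012864-30013113 (+) for Il6, chr7:140763569-140763818 (+) for Cyp2e1 and chr8:4134486-4134735 (+) for Cd209g.
Cxcl3: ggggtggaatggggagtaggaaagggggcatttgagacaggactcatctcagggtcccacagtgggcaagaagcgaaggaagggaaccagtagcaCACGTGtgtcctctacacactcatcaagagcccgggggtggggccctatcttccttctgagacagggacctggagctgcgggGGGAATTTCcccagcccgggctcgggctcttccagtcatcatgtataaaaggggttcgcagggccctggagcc
Il6: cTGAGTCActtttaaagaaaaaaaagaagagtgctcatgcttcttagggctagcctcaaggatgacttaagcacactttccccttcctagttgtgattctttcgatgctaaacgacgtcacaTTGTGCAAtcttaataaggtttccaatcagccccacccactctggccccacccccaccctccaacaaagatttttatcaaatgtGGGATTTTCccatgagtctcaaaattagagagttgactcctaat
Cyp2e1: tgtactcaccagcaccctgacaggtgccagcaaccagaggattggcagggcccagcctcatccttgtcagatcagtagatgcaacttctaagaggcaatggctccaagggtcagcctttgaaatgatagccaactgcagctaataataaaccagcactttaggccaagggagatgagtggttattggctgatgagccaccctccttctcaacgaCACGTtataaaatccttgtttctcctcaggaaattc
Cd209g: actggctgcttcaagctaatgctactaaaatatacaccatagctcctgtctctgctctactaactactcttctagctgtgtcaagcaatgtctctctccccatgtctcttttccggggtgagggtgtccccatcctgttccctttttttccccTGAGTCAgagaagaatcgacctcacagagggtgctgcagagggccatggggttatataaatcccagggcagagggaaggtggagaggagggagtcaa
Cxcl3 held an NF-kB match that began at position -73 from the start. It also held an E box at -155, within which the hypoxia core matched at -155 and -154. Il6 held an NF-kB match at -44 along with a C/EBP match at -128 and an activator protein 1 match at -249. Cyp2e1 held 1 match, to the hypoxia core at -36, and Cd209g held 1, to activator protein 1 at -97. A match is a run of letters and not a bound site.

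Windows were at hand for 12628 of the tested genes, and the shares that follow are descriptions with no test. The NF-kB letters were found in 0.895% of all these windows, in 2.59% of the 1044 windows of genes called at least 2-fold higher, and in 0.786% of the 1273 of genes called at least 2-fold lower. The interferon response letters were found in 6.54%, 14.5% and 5.81%, and the activator protein 1 letters in 5.12%, 8.24% and 7.07%. Those of C/EBP were found in 8.02%, 10.3% and 9.43%. Among the 151 windows of genes called at least 8-fold higher, a limit chosen after values were seen, the shares were 7.28% for NF-kB, 21.2% for interferon response, 17.9% for activator protein 1, 17.2% for C/EBP, 5.96% for the E box and 14.6% for the hypoxia core, the last 2 below their shares of all windows. The E box was found in 7.88% of all windows, 7.85% of those of genes at least 2-fold higher and 6.83% of those lower, and the hypoxia core in 20.4%, 17.7% and 17.2%. Of the 11 windows among the 15 largest rises, 4 held the NF-kB letters and 5 the C/EBP letters, those of Il6, Ptx3, Saa1, Saa2 and Saa3. The interferon response letters were in 2, those of activator protein 1 in 1, the E box in 1 and the hypoxia core in 3. Of the 12 windows among the 15 largest falls, 2 held the activator protein 1 letters, 1 the hypoxia core and 0 any of the other 4 motifs.

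Transcripts of the cornifying and basal layers of the skin were lower with MSU. Of 15 genes of cornifying keratinocytes, the cells that build the outer barrier, 14 fell and 0 rose (median -1.19), against 21.7% of all genes lower. Their summed level was 11920, 14760 and 12930 CPM in the PBS libraries and 6507, 6231 and 4513 CPM with MSU, or 43.6% of the control mean. Krt10, a keratin of the suprabasal layers, stood at 3910, 4410 and 3990 CPM against 2160, 1810 and 1310 CPM (log2 fold change -1.22, SE 0.18, adjusted p = 0.000706). Sbsn, which encodes the secreted epidermal protein suprabasin, stood at 498, 559 and 470 CPM against 189, 241 and 203 CPM (-1.27, SE 0.12, adjusted p = 7.49e-05). No MSU library reached a PBS library for either gene. Flg, filaggrin, fell too (-1.70, adjusted p = 0.012), a call lost without MSU 2 or with the replicate block. It was also lost without the count filter and with GC content and gene length trends removed (adjusted p = 0.0721). Of 11 genes of the barrier lipids, 7 fell and 1 rose (median -0.79). Abca12, the transporter that loads lipid into lamellar bodies, fell by 1.42, and Alox12b, the lipoxygenase that starts the cornified lipid envelope, fell by 1.08. The rise was Ugcg, which makes glucosylceramide, from 76.7, 101 and 98.8 CPM to 214, 181 and 170 CPM (1.04).

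Of 11 basal keratinocyte genes, 7 fell and 0 rose (median -0.65). Krt15, a keratin of basal cells and of the hair follicle bulge, stood at 677, 629 and 651 CPM in the PBS libraries and 140, 210 and 81.7 CPM with MSU (log2 fold change -2.18, SE 0.34, adjusted p = 0.00346). Krt5, the type II keratin of the same layer, fell from 1870, 1650 and 1920 CPM to 673, 1030 and 706 CPM (-1.18). Its partner Krt14 was lower too (-0.59, adjusted p = 0.0255), a call that was lost without PBS 1, PBS 3, MSU 1 or MSU 3 and with GC content and gene length trends removed. The fall of the collagen gene Col17a1 (-0.65, adjusted p = 0.0121) was also lost with those trends removed (adjusted p = 0.0632). Trp63, the master transcription factor of stratified epithelium, was not lower: it had 143, 183 and 212 CPM against 202, 230 and 215 CPM (0.27, adjusted p = 0.152), and Itga6, the integrin of hemidesmosomes, did not pass (log2 fold change -0.12, adjusted p = 0.408). Trp63 and Itga6 were chosen for their values.

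Genes of wounded or inflamed epidermis changed in both directions, 3 of 13 upward and 3 downward (23.1% each, beside 21.6% and 21.7% of all genes), with a median of 0.21. Krt6b, a keratin of activated keratinocytes, stood at 35.5, 8.91 and 8.25 CPM in the PBS libraries and at 249, 377 and 486 CPM with MSU (log2 fold change 4.38, SE 0.81, adjusted p = 0.0141). Krt16, its partner, stood at 83.7, 31.8 and 27.8 CPM against 343, 585 and 536 CPM (3.35, SE 0.57, adjusted p = 0.00919). Il1f9, which encodes the alarm cytokine interleukin-36 gamma, rose from 29.2, 35.1 and 19.6 CPM to 92.2, 173 and 169 CPM (2.37). The groups were apart for all 3 genes, with PBS 1 the highest control for both keratins. The falls were Sprr1b and Lce3c, genes of the cornified envelope (-1.66 and -1.90), and Il1f6, which encodes interleukin-36 alpha (-0.90, with overlapping groups, and lost without PBS 1, PBS 2, MSU 2 or MSU 3). The count of rises was 1 with the replicate block, under which Krt6b and Krt16 had adjusted p values of 0.0635 and 0.0513, and 5 without MSU 1.

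Among skin appendages, 6 of 8 sebaceous gland genes fell and 0 rose (median -0.95). Krt79, a keratin of the gland and its duct, fell from 900, 697 and 705 CPM to 229, 337 and 230 CPM (-1.53), Far2, which makes wax alcohols, fell by 1.49, and Mc5r, the melanocortin receptor of sebocytes, fell by 1.37. Hair follicle genes had a median of -2.08, but 3 of 9 were called. Their summed level was 598, 2510 and 4578 CPM in the PBS libraries and 171, 1404 and 258 CPM with MSU, and the groups overlapped. Lhx2, a transcription factor of follicle stem cells, was lower in every MSU library, at 25.5, 26.9 and 33.2 CPM against 5.15, 9.96 and 4.23 CPM (-2.14, SE 0.30, adjusted p = 0.000926). The inner root sheath keratin Krt25 stood at 105, 346 and 626 CPM against 24, 218 and 31.2 CPM (adjusted p = 0.274). The count of falls was 1 without PBS 2, PBS 3, MSU 1 or MSU 3. Of 7 melanocyte genes, 4 passed the count filter and 2 fell, Dct and Tyrp1, both enzymes of melanin synthesis (-1.74 and -1.07), and 1 fell without PBS 3, MSU 1 or MSU 3.

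Fat cell transcripts were lower. Of 15 adipocyte genes, 10 fell and 0 rose (median -0.94), and their sum was 59.9% of the control mean. Cebpa, a transcription factor of fat cell identity, stood at 203, 241 and 214 CPM in the PBS libraries and 113, 132 and 98.4 CPM with MSU (log2 fold change -0.94, SE 0.12, adjusted p = 0.000405). Adipoq, the adipokine adiponectin, stood at 57.3, 66.9 and 61.6 CPM against 41.4, 39.8 and 36.3 CPM (-0.66, SE 0.10, adjusted p = 0.000898). The groups of both were apart, though Adipoq moved less. Plin1, the coat protein of the fat cell's lipid droplet, stood at 98.4, 82.4 and 99.3 CPM against 26.5, 14.8 and 7.24 CPM (-2.50, adjusted p = 0.012), a call that was lost without MSU 2. Lep, the leptin gene, had overlapping groups (-0.62, adjusted p = 0.401), as did Fabp4, a fatty acid binding protein shared with vessels and macrophages (0.02, adjusted p = 0.926, chosen for its value).

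Of 16 genes of fatty acid and triglyceride synthesis, 12 fell and 1 rose (median -0.79). Slc2a4, the insulin-responsive glucose transporter of fat and muscle, stood at 42.6, 36 and 36.8 CPM against 12.6, 13.7 and 11.2 CPM (-1.62, SE 0.13, adjusted p = 3.27e-05). Pck1, which supplies glycerol for triglycerides, fell from 18.7, 35.2 and 35.6 CPM to 1.29, 3.24 and 2.63 CPM (-3.69). Fasn, fatty acid synthase, and Gpam, the first enzyme of glycerolipid synthesis, fell by 0.81 and 1.06, while Acaca, acetyl-CoA carboxylase, did not pass (log2 fold change -0.20, adjusted p = 0.0886), except with upper quartile scaling (-0.30, adjusted p = 0.0185). The rise was Dgat1, which completes triglycerides, from 103, 77.2 and 83.8 CPM to 159, 220 and 333 CPM (1.43, chosen for its value). Of 19 fatty acid oxidation genes, 8 fell and 1 rose (median -0.24), and 4 fell without PBS 2 or MSU 3 and 5 without PBS 3. Hadh and Acadm, mitochondrial dehydrogenases of the pathway, fell by 1.13 and 0.90. The rise was Pdk4, the kinase that spares glucose (2.29, adjusted p = 0.0248, chosen for its value), and its call was lost without PBS 3, MSU 2 or MSU 3 or without the count filter.

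Breakdown of branched chain amino acids, a pathway active in fat and muscle, had 8 of 16 genes lower and 1 higher (median -0.31), and 5 fell without PBS 1, PBS 2 or MSU 2. Aldh6a1, its methylmalonate semialdehyde dehydrogenase, stood at 102, 83.1 and 109 CPM against 49.6, 44.2 and 44.2 CPM (log2 fold change -1.09, SE 0.12, adjusted p = 0.000142). Among 6 tested genes of thermogenic fat, 4 fell and 1 rose (median -0.96). Ebf2 and Ppargc1a, which set up the thermogenic programme, fell by 1.84 and 1.94. Dio2, the deiodinase that activates thyroid hormone and is also made outside fat, stood at 31.9, 27.9 and 34.1 CPM against 146, 184 and 171 CPM (2.41, SE 0.12, adjusted p = 5.77e-06). Ucp1, the uncoupling protein that defines brown fat, had 0 to 0.0969 CPM in the PBS libraries and 0.094 to 0.457 CPM in the MSU libraries and was not tested.

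Cholesterol synthesis was lower along nearly the whole pathway. Of 19 genes, 17 fell and 0 rose (median -0.81), and their summed level was 2760, 2437 and 2424 CPM in the PBS libraries against 1329, 1507 and 1380 CPM with MSU. Hmgcs1, at its entry, stood at 300, 264 and 289 CPM against 124, 114 and 109 CPM (log2 fold change -1.30, SE 0.10, adjusted p = 2.55e-05). No MSU library overlapped the controls for this enzyme. Lss, which closes the sterol rings, and Msmo1, which demethylates them, fell by 1.39 and 1.31. Srebf2, the transcription factor of the pathway, did not pass (0.07, adjusted p = 0.619, chosen for its value), but was higher with GC content and gene length trends removed (0.36, adjusted p = 0.0134). The epidermis and sebaceous glands also make cholesterol, and their transcripts fell beside it. The part of those tissues in the result was not tested.

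Of 19 tested genes of muscle contraction, 10 fell and 0 rose (median -0.45), with 0.72 as the size of the largest fall, that of the oxygen store myoglobin, Mb (-0.72, adjusted p = 0.0105). Myl1, a myosin light chain, stood at 254, 267 and 236 CPM in the PBS libraries and 161, 178 and 172 CPM with MSU (log2 fold change -0.56, SE 0.09, adjusted p = 0.00127). Acta1, the skeletal actin, and Myh4, the fastest myosin, had overlapping groups (-0.33, adjusted p = 0.131, and 0.19, adjusted p = 0.823). Acta1 passed without MSU 2 (-0.48, adjusted p = 0.0417), with the replicate block (adjusted p = 0.0448), with upper quartile scaling and without the count filter. The count of falls was 6 without PBS 1 and also 6 once trends with GC content and gene length were removed.

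Of 13 smooth muscle and pericyte genes, 9 fell and 1 rose (median -0.74), and their sum went from 1364, 1555 and 1483 CPM to 935, 845 and 909 CPM. Myh11, the smooth muscle myosin, stood at 117, 163 and 170 CPM against 48.6, 35.8 and 53.2 CPM (log2 fold change -1.71, SE 0.19, adjusted p = 0.000252). Lmod1, an actin nucleator of smooth muscle, stood at 14.5, 17.4 and 16.8 CPM against 2.95, 3.62 and 5.64 CPM (-2.02, SE 0.25, adjusted p = 0.000248). The groups of both contractile genes were well apart. Cnn1, calponin, fell by 1.99 and Acta2, smooth muscle actin, by 1.18, while Rgs5, a pericyte marker, did not pass (log2 fold change -0.49, adjusted p = 0.0558, but 0.0243 by DESeq2, 0.048 without MSU 1 and also under 0.05 with upper quartile scaling, without the count filter and with GC content and gene length trends removed). The rise, Kcnj8, a potassium channel of pericytes chosen for its value (0.40, adjusted p = 0.0459), was lost when any 1 library was left out, with the replicate block, with upper quartile scaling and without the count filter.

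Of 12 fibroblast genes, 7 fell and 1 rose (median -0.65). Pdgfra, the platelet-derived growth factor receptor of fibroblasts, stood at 272, 268 and 260 CPM in the PBS libraries and 514, 410 and 491 CPM with MSU (log2 fold change 0.82, SE 0.11, adjusted p = 0.00037). Cd34, a sialomucin of fibroblasts and vessels, stood at 206, 218 and 254 CPM against 85.8, 57.7 and 73.3 CPM (-1.64, SE 0.15, adjusted p = 6.82e-05). They moved in opposite directions with no overlap of the groups in either. Dpt, the matrix protein dermatopontin, fell by 1.31, Cygb, cytoglobin, by 1.15 and Gsn, gelsolin, by 0.84. Both the fall of Pi16 (-0.67) and that of Fbln1 (-0.49) were lost with GC content and gene length trends removed. Pi16 was also not called without PBS 3 or MSU 1. Fbln1 was also not called with the replicate block or without MSU 1, MSU 2 or any PBS library. Dcn and Lum, proteoglycans chosen for their values, did not pass (0.00, adjusted p = 0.994, and 0.10, adjusted p = 0.855).

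Of 8 genes of the synovial lining, 3 fell and 0 rose (median 0.08). Prg4, the lubricant lubricin, stood at 7250, 4810 and 5310 CPM in the PBS libraries and 6780, 5360 and 12400 CPM in the MSU libraries (log2 fold change 0.50, adjusted p = 0.251), so that MSU 3 alone was above the controls. Tspan15, a tetraspanin of lining fibroblasts, stood at 63.6, 37 and 51.8 CPM against 15.5, 17.7 and 24.1 CPM (-1.42, SE 0.23, adjusted p = 0.00203). Cd55, a complement regulator of the same cells, fell from 138, 96.3 and 117 CPM to 74.2, 60.2 and 71.4 CPM (-0.77). Clic5, a chloride channel protein, was lower too (-2.44, adjusted p = 0.0206), a call that was lost without MSU 1 or MSU 2, with the replicate block or without the count filter.

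The collagens split by chain. Of 43 tested collagen genes, 8 rose and 18 fell (median -0.44). Col1a1 and Col1a2, the chains of type I collagen of bone, tendon and skin, rose, and Col3a1, the chain of type III collagen of soft tissue, fell. Col1a1 stood at 3863, 4490 and 3292 CPM in the PBS libraries and 10930, 7050 and 6147 CPM with MSU (log2 fold change 1.05, SE 0.23, adjusted p = 0.00543). Col3a1 stood at 2119, 2582 and 3148 CPM against 1692, 1090 and 1176 CPM (-0.99, SE 0.20, adjusted p = 0.00446). MSU 1 was the highest library for Col1a1. These genes were chosen for their values, as was Col1a2 (0.85, adjusted p = 0.0184). Without the count filter neither chain of type I collagen passed (adjusted p = 0.0991 for Col1a1 and 0.184 for Col1a2), and Col1a2 did not without PBS 1 or PBS 3 (0.0539 and 0.0881). Type IV collagen, the sheet of basement membranes, split too. Col4a1 and Col4a2, the chains found in all basement membranes, rose by 1.05 and 0.75, whereas Col4a4, Col4a5 and Col4a6, the chains of special membranes, fell by 2.28, 1.86 and 2.41. Col4a6 stood at 26.3, 23.9 and 22.1 CPM against 5.19, 4.9 and 3.29 CPM (SE 0.19, adjusted p = 3.3e-05). Col8a2, a short-chain collagen of vessels and cornea, moved furthest, from 40.5, 46.6 and 49.4 CPM to 4.28, 4.53 and 5.45 CPM (-3.27, SE 0.15, adjusted p = 3.4e-06).

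**Figure D3:**
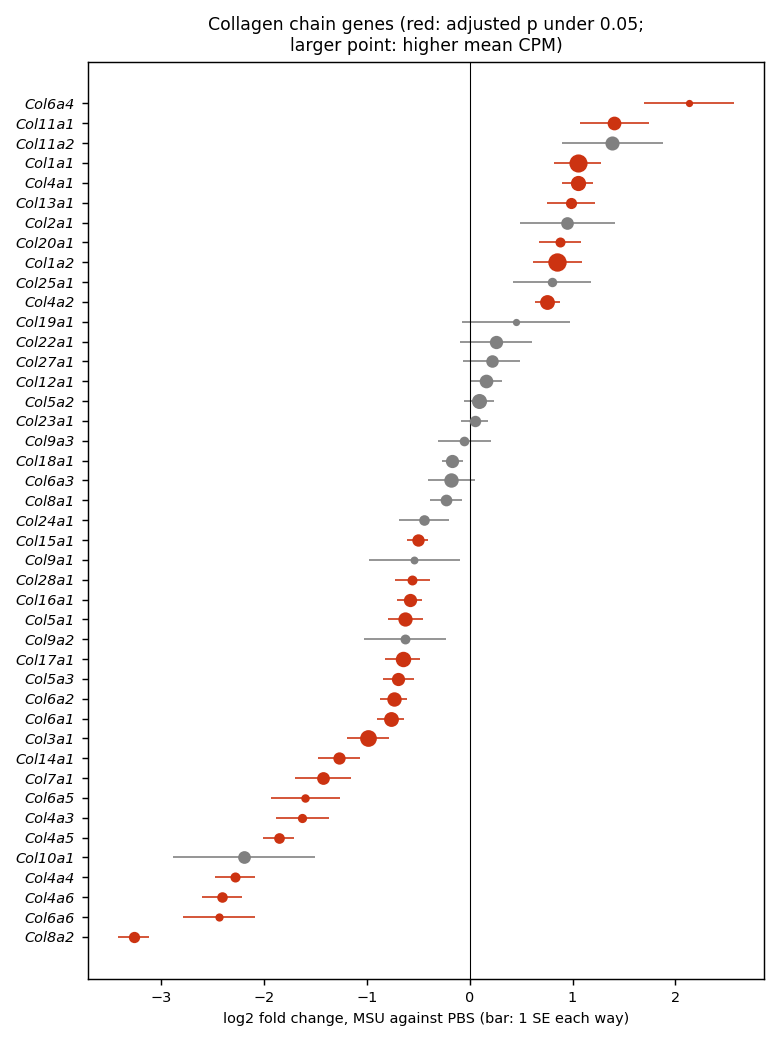
Log2 fold change of 43 collagen chain genes, MSU against PBS (3 libraries each), with bars of 1 SE each way; red points passed the edgeR test and larger points have a higher mean CPM. Col1a1, Col1a2, Col4a1 and Col4a2 lie right of 0, and Col3a1, Col4a3 to Col4a6 and Col8a2 lie left.

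Enzymes that shape collagen rose more often than they fell, with 8 of 16 higher and 4 lower (median 0.32). Plod2, the lysyl hydroxylase of stiff cross-links, stood at 83.8, 82.9 and 83.7 CPM in the PBS libraries and 333, 179 and 271 CPM with MSU (log2 fold change 1.65, SE 0.21, adjusted p = 0.000599). Serpinh1, the collagen chaperone HSP47, and P4ha1, a prolyl hydroxylase, rose by 0.88 and 0.72. The lysyl oxidase family divided, with Lox and Loxl4 higher (0.77 and 1.19) and Loxl1 and Loxl2 lower (-0.95 and -0.86). The groups were apart for these 4 genes.

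All 8 genes of elastic fibres changed, 6 downward and 2 upward (median -0.74). The fall of Mfap4 was not called without PBS 2, PBS 3, MSU 1 or MSU 3. Those of Fbn1 and Ltbp4 were not called with GC content and gene length trends removed. Eln, elastin itself, stood at 120, 142 and 134 CPM against 54.1, 64.3 and 65.5 CPM (log2 fold change -1.11, SE 0.11, adjusted p = 8.7e-05). Mfap2, a microfibril protein, stood at 16.8, 16.7 and 21.7 CPM against 4.69, 4.9 and 4.14 CPM (-2.0, SE 0.18, adjusted p = 5.55e-05). The rises were Emilin1 and Efemp2, glycoproteins that take part in fibre assembly (1.35 and 0.79). Of 10 small leucine-rich proteoglycans, which tune collagen fibrils, 4 fell and 0 rose (median -0.90). Podn, podocan, stood at 73.3, 67.7 and 83.6 CPM against 18.7, 20.4 and 14.7 CPM (-2.06, SE 0.14, adjusted p = 1.95e-05), and Ogn, osteoglycin, fell by 2.47, while Bgn, biglycan, did not pass (log2 fold change -0.05, adjusted p = 0.790). Of 12 basement membrane genes, 4 rose and 5 fell (median -0.26), or 3 fell without PBS 2, PBS 3 or MSU 1. Lama2, the laminin chain of muscle and nerve, fell by 1.28 and Lamb1, a chain of many laminins, rose by 0.85.

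Of 13 osteoblast and osteocyte genes, 5 rose and 0 fell (median 0.71, against 21.6% of all genes higher). Ibsp, the bone sialoprotein, stood at 323, 378 and 276 CPM in the PBS libraries and 1460, 954 and 723 CPM with MSU (log2 fold change 1.68, SE 0.26, adjusted p = 0.00219). Spp1, osteopontin, which macrophages also make, stood at 509, 843 and 518 CPM against 3300, 2050 and 2160 CPM (2.0, SE 0.27, adjusted p = 0.000856). MSU 1 was highest for both, and no MSU library reached down to the controls. Fgf23, the phosphate hormone of osteocytes, was scarce in the PBS libraries at 0.0484, 0.55 and 0.344 CPM and stood at 6.56, 5.43 and 11.8 CPM with MSU (4.78, SE 0.68, adjusted p = 0.0011). Bglap, osteocalcin, and Dmp1, an osteocyte matrix protein, had log2 fold changes of 1.36 (adjusted p = 0.141) and 1.76 (adjusted p = 0.0606). Bglap passed with the replicate block (1.42, adjusted p = 0.0134) and by limma-voom, and Dmp1 passed without PBS 2 (2.25, adjusted p = 0.0394), by DESeq2 and by limma-voom.

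Osteoclast genes rose in 7 of 9 cases and fell in 0 (median 1.74), with a summed level of 505, 860 and 612 CPM against 1662, 1341 and 1036 CPM. Dcstamp, which osteoclast precursors need to fuse, stood at 2.42, 4.2 and 2.06 CPM against 21.4, 11.1 and 10.5 CPM (log2 fold change 2.30, SE 0.37, adjusted p = 0.0015). Ocstamp, its relative in fusion, stood at 1.55, 3.65 and 1.79 CPM against 19.3, 9.05 and 7.52 CPM (2.37, SE 0.48, adjusted p = 0.00597). Calcr, the calcitonin receptor, rose by 3.27 from 0.0969, 0.471 and 0.138 CPM, and Atp6v0d2, a subunit of the proton pump, by 1.74 (adjusted p = 0.0532 with the replicate block). PBS 2 was the highest control and MSU 1 the highest library for Dcstamp and Ocstamp. Ctsk, the protease that digests bone matrix, rose by 1.06, a call lost without MSU 2 or without the count filter, and Acp5, the tartrate-resistant phosphatase, did not pass (1.57, adjusted p = 0.0561). Without PBS 2 it did (2.12, adjusted p = 0.00256), as it did by DESeq2 and limma-voom and with GC content and gene length trends removed.

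Of 16 tested cartilage genes, 1 rose and 2 fell (median -0.41). The count of falls was 1 without PBS 1, PBS 2, PBS 3 or MSU 3, 3 without MSU 2, 6 without MSU 1 and 5 without the count filter. Chad, the cartilage matrix protein chondroadherin, fell by 0.80 (adjusted p = 0.0394), a call lost in those 4 fits with 1 fall, without the count filter and with GC content and gene length trends removed. Sox9, the transcription factor of chondrocytes, stood at 59.6, 67.4 and 80.2 CPM against 41.5, 50.8 and 45.2 CPM (log2 fold change -0.59, SE 0.13, adjusted p = 0.00565). Acan, aggrecan, and Col2a1, type II collagen, had overlapping groups (0.21, adjusted p = 0.662, and 0.95, adjusted p = 0.167). Acan passed without MSU 2 (0.52, adjusted p = 0.0195) and Col2a1 with the replicate block (0.81, adjusted p = 0.0414). Col11a1, a fibril collagen of cartilage and bone, was the rise (1.41, but adjusted p = 0.101 without the count filter). Of 5 tendon genes, 3 fell and 0 rose (median -0.86). Scx, the transcription factor of tendon cells, stood at 9.98, 8.83 and 15.5 CPM against 2.24, 2.34 and 2.54 CPM (-2.27, SE 0.26, adjusted p = 0.000191), whereas Tnmd, tenomodulin, stood at 35.7, 38.5 and 41.3 CPM against 22.1, 15.9 and 39.6 CPM (-0.58, adjusted p = 0.184). Without MSU 3, Tnmd was lower (-1.01, adjusted p = 0.00284), as it was by limma-voom and without the count filter.

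The summed level of endothelial genes was 771, 947 and 859 CPM in the PBS libraries and 918, 981 and 898 CPM with MSU. Of 14 genes, 4 rose and 4 fell (median -0.05). Flt1, a receptor of vascular endothelial growth factor, stood at 39.3, 51.4 and 42.3 CPM against 82.7, 100 and 96.7 CPM (log2 fold change 1.07, SE 0.13, adjusted p = 0.00021). Vwf, the von Willebrand factor that holds platelets, stood at 72.7, 88.8 and 82.4 CPM against 33.4, 35.4 and 28.9 CPM (-1.32, SE 0.12, adjusted p = 5.13e-05). Both sets of libraries were apart and in opposite directions. Cdh5, the cadherin of endothelial junctions, rose by 0.88, while Cldn5, the claudin of tight junctions, fell by 1.09 and Tek, the angiopoietin receptor, by 0.67. Pecam1, a general endothelial marker, did not pass (log2 fold change -0.04, adjusted p = 0.817). Of 6 lymphatic genes, 0 passed in either direction by edgeR (median -0.19), and 1 fell without PBS 2 or MSU 3.

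Schwann cell genes, the genes of nerve sheaths, fell in 8 of 13 cases and rose in 0 (median -0.59), and their sum was 63.3% of the control mean. Prx, periaxin, which anchors myelin, stood at 48.8, 37.4 and 46.3 CPM in the PBS libraries and 15, 15.5 and 17.5 CPM with MSU (log2 fold change -1.47, SE 0.14, adjusted p = 6.14e-05). Its groups did not overlap. Cdh19, a cadherin of the Schwann cell lineage, fell by 1.63, and Sox10, its transcription factor, did not pass (log2 fold change -0.49, adjusted p = 0.0829, but 0.0411 with upper quartile scaling, 0.0464 by limma-voom and 0.0457 without the count filter).

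Of the blood cell markers, those of mature neutrophils and of inflammatory monocytes were higher. Of 15 mature neutrophil genes, 14 rose and 0 fell (median 3.01), and their summed level was 302, 870 and 343 CPM in the PBS libraries against 2936, 4099 and 4924 CPM with MSU. Cxcr2, the chemokine receptor by which neutrophils are recruited, stood at 9.74, 23.8 and 12 CPM against 120, 190 and 184 CPM (log2 fold change 3.44, SE 0.43, adjusted p = 0.00253). Fpr1, the receptor for bacterial formyl peptides, stood at 2.2, 3.14 and 0.756 CPM against 53.2, 91.4 and 98.1 CPM (5.23, SE 0.51, adjusted p = 0.000877). Cd177, a neutrophil surface antigen chosen for its value, did not pass (log2 fold change 1.59, adjusted p = 0.214). Without PBS 2 Cd177 rose (2.93, adjusted p = 0.000358), as it did by limma-voom. Over the fits that left out 1 library, 10 to 15 of the list rose. The 11 genes of neutrophil precursors in bone marrow did not pass in either direction (median 0.28), and 6 rose without PBS 2. Mpo, the myeloperoxidase made by these precursors, stood at 9.08, 45.5 and 12.7 CPM against 31, 29.5 and 15.8 CPM (0.19, adjusted p = 0.862), or 1.23 without PBS 2 (adjusted p = 0.0198). PBS 2 held 769 CPM of the precursor list against 119 and 229 CPM in the other controls, and was also the highest control for Cxcr2 and Fpr1.

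**Figure D4:**
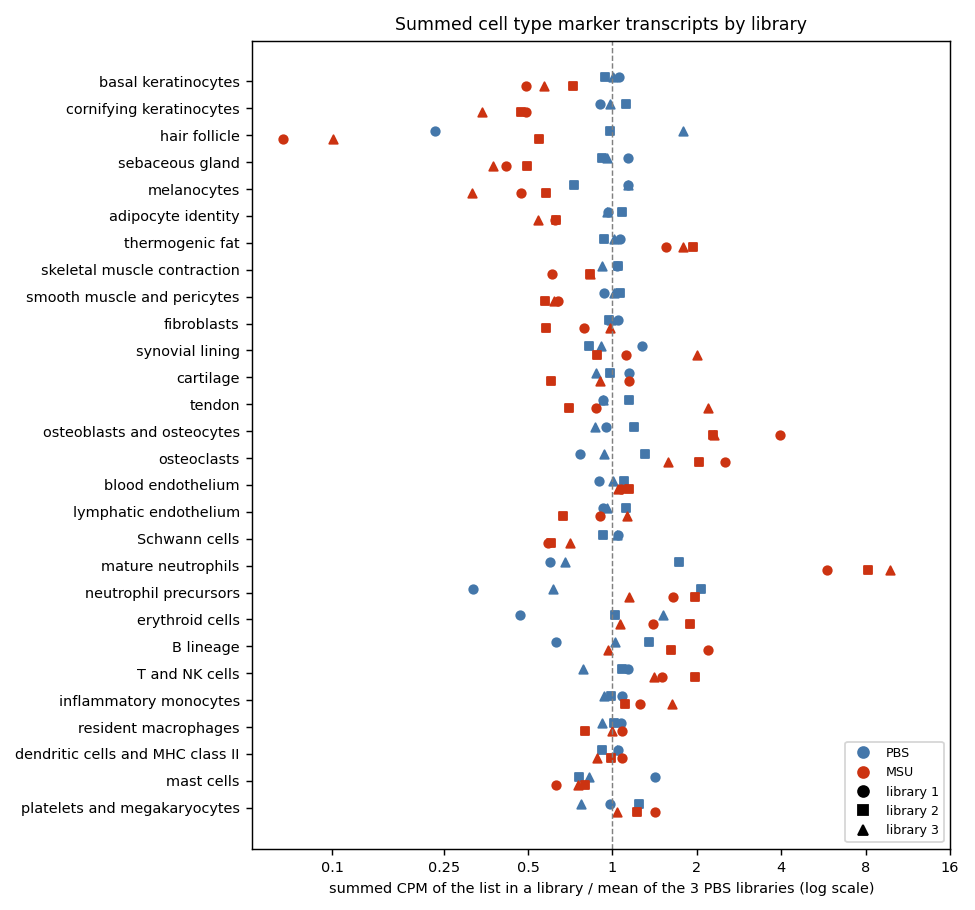
Summed CPM of each cell type's marker list in each library, divided by the mean of the 3 PBS libraries (log axis), with PBS in blue, MSU in red and the shape giving the library number. Mature neutrophil sums lie far right of the controls, keratinocyte, sebaceous, adipocyte, smooth muscle and Schwann cell sums lie left of them, and hair follicle and neutrophil precursor sums overlap.

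Of 10 genes of inflammatory monocytes, 7 rose and 0 fell (median 1.87). Ccr2, the receptor that calls monocytes out of the marrow, stood at 66.9, 65.6 and 63.7 CPM against 133, 119 and 120 CPM (log2 fold change 0.92, SE 0.09, adjusted p = 7.23e-05). Ms4a4c, a membrane protein of these cells, rose by 3.38 and Ly6c2, their surface marker, by 1.98, whereas Lyz2, the lysozyme shared by monocytes, macrophages and neutrophils and chosen for its value, stood at 928, 812 and 752 CPM against 776, 502 and 780 CPM (-0.28, adjusted p = 0.233). Resident macrophage genes were mixed, with 1 of 16 higher and 4 lower (median -0.22), and 2 lower without PBS 3 or MSU 2. Cx3cr1, the fractalkine receptor, which marks macrophages of the synovial lining and other tissues, stood at 38.5, 19.7 and 16.1 CPM against 8.89, 8.9 and 7.52 CPM (-1.56, SE 0.33, adjusted p = 0.00668). Mrc1, the mannose receptor, was higher (0.62), and Cd163, the haemoglobin scavenger receptor, overlapped (0.04, adjusted p = 0.910).

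Of 14 genes of dendritic cells and MHC class II, 3 rose and 2 fell (median -0.15). Ccr7, by which dendritic cells leave for lymph nodes and which lymphocytes share, stood at 3.73, 5.26 and 2.68 CPM in the PBS libraries and 14.5, 16.6 and 21.5 CPM with MSU (log2 fold change 2.15, SE 0.26, adjusted p = 0.000256). The class II chain H2-Aa and its master regulator Ciita did not pass (-0.19, adjusted p = 0.221, and 0.14, adjusted p = 0.419). The falls, Cd207, the langerin of epidermal Langerhans cells (-0.85), and H2-DMa, which loads class II peptides (-0.52), numbered 0 without PBS 1 or MSU 3 and 1 without PBS 3, MSU 1 or MSU 2. Of 17 T and NK cell genes, 3 rose (17.6%, beside 21.6% of all genes) and 0 fell (median 0.56). Among the rises, the call of Klrb1c was lost without MSU 1, MSU 2 or any PBS library. It was also lost by DESeq2 (adjusted p = 0.0572), with the replicate block and with upper quartile scaling. The same held without the count filter and with GC content and gene length trends removed. Il7r, the interleukin-7 receptor, rose from 13.2, 19.6 and 12.6 CPM to 34.2, 43.2 and 38.5 CPM (1.35) and Gzma, a granzyme, by 2.02, while Cd3e, the invariant T cell receptor chain, did not pass (log2 fold change 0.50, adjusted p = 0.305).

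Mast cell genes fell in 2 of 9 cases and rose in 0 (median -0.46). PBS 1 held 426 CPM of the list against 230 and 248 CPM in the other controls. Ms4a2, a chain of the IgE receptor, was lower (-1.36), and 1 of the list fell without PBS 1, MSU 1, MSU 2 or MSU 3. Fcer1a, the chain of that receptor which binds IgE, did not pass (1.27, adjusted p = 0.057), but was higher without PBS 1 (1.96, adjusted p = 0.00608), by DESeq2 (adjusted p = 0.00879) and without the count filter. None of the 11 B lineage genes passed in edgeR (median 0.74), 4 rose by DESeq2 and 1 by limma-voom. Without MSU 3 2 of them rose and without PBS 2 1 did. Erythroid genes were called in 0 of 11 cases (median 0.42), with 2 higher without PBS 2 and 1 without PBS 3. Of 7 tested platelet genes, 1 rose (median 0.78), Itga2b, an integrin chain of platelets (0.79), and the count was 0 without PBS 1 or any MSU library and 3 without PBS 2.

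All 20 genes of ribosome biogenesis rose (median 1.17), in every fit that left out 1 library. Nop58, a core protein of the particles that methylate ribosomal RNA, stood at 45.4, 46.6 and 43.1 CPM in the PBS libraries and 122, 114 and 137 CPM with MSU (log2 fold change 1.46, SE 0.10, adjusted p = 1.61e-05). Fbl, fibrillarin, the methylase of those particles, stood at 54.3, 54.3 and 53.7 CPM against 120, 113 and 134 CPM (1.17, SE 0.09, adjusted p = 3.1e-05). The libraries within each group lay close together. Of 82 cytosolic ribosomal protein genes, 3 rose and 1 fell (median 0.01), and the gene that fell, Rpl36 (-0.30), was not called without PBS 1, PBS 2, PBS 3, MSU 2 or MSU 3 or with the replicate block, and stood at 0 with GC content and gene length trends removed. With upper quartile scaling 7 of them fell, and by DESeq2 8 rose. Of 18 aminoacyl-tRNA synthetases, which charge tRNAs, 16 rose and 0 fell (median 0.63), among them Iars, the isoleucine enzyme, from 60.1, 63.1 and 59.7 CPM to 111, 118 and 113 CPM (0.90). Of 38 proteasome genes, 23 rose and 1 fell (median 0.31), and 13 rose without PBS 2, 14 without PBS 3 or MSU 3 and 11 with upper quartile scaling. The fall was not called when any 1 library was left out, with the replicate block or with GC content and gene length trends removed. Psmb8 and Psmb10, subunits of the immunoproteasome, rose by 1.27 and 1.30, more than any other named subunit.

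**Figure D5:**
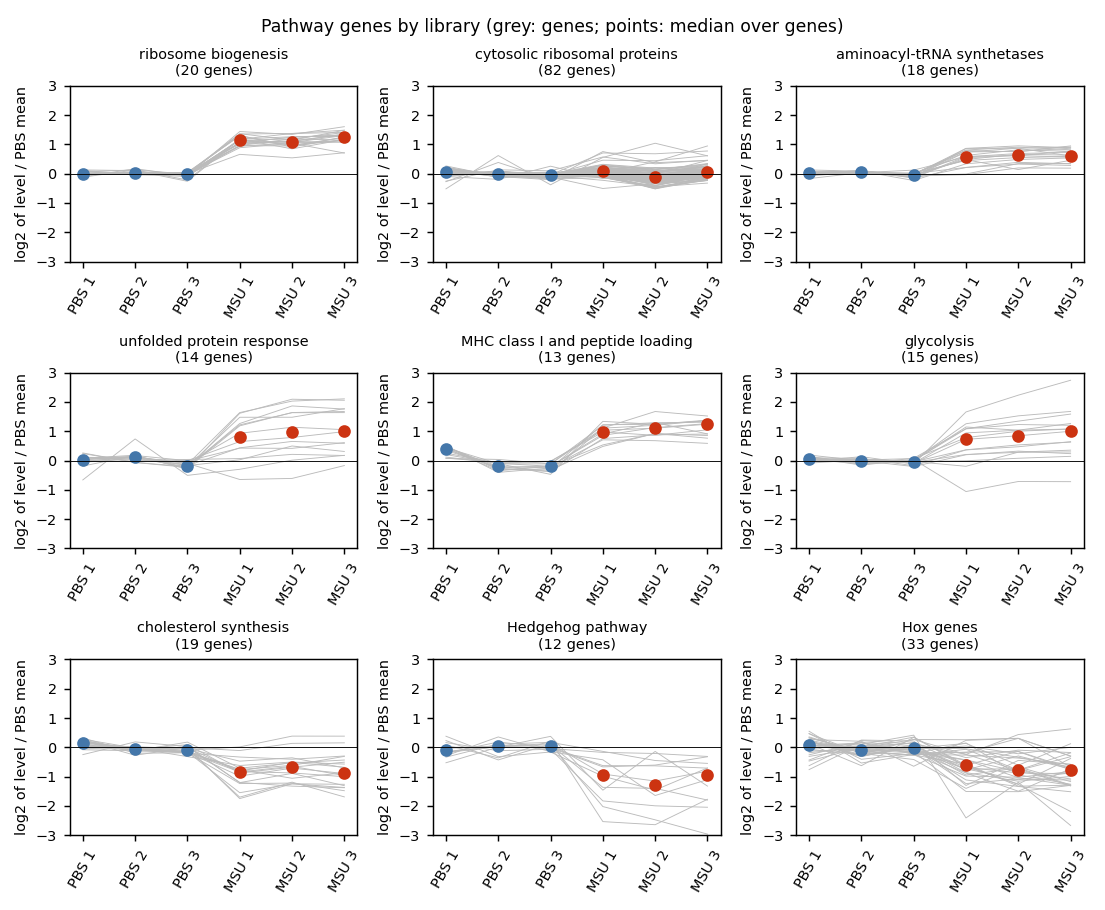
Log2 of each gene's CPM (plus 0.1) over its mean in the PBS libraries (plus 0.1) in each of the 6 libraries for 9 lists, with grey lines for genes and points for the median over the genes of a list (PBS blue, MSU red). Ribosome biogenesis medians lie above 1 in all 3 MSU libraries, ribosomal protein medians stay near 0, and cholesterol synthesis, Hedgehog and Hox medians lie below 0.

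Genes of protein folding in the endoplasmic reticulum rose in 10 of 14 cases and fell in 0 (median 0.93). Hspa5, the chaperone BiP, stood at 388, 374 and 332 CPM against 1130, 1490 and 1570 CPM (log2 fold change 1.94, SE 0.14, adjusted p = 2.49e-05). Xbp1, a transcription factor of the response, rose from 222, 248 and 212 CPM to 433, 500 and 472 CPM (1.04). Cytosolic chaperones rose in 7 of 12 cases and fell in 1 (median 0.50). Hsp90aa1, the inducible HSP90, rose by 1.61 and Hsph1, a partner of HSP70, by 2.05, yet Hspa1a and Hspa1b, the HSP70 genes most induced by heat, stood at -0.18 (adjusted p = 0.440) and -0.54 (adjusted p = 0.0986). Hspa1b was lower without MSU 2 (-0.79, adjusted p = 0.00806), by DESeq2 (adjusted p = 0.0335), with upper quartile scaling and without the count filter.

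Of 13 genes of the NRF2 oxidant response and glutathione, 6 rose and 2 fell (median 0.58), or 1 fell without PBS 3, MSU 1 or MSU 3. Slc7a11, which imports cystine for glutathione, stood at 8.89, 8.24 and 8.6 CPM in the PBS libraries and 134, 247 and 286 CPM with MSU (log2 fold change 4.69, SE 0.31, adjusted p = 9.92e-05). Gsr, glutathione reductase, stood at 60.1, 89.9 and 66.3 CPM against 435, 387 and 384 CPM (2.48, SE 0.16, adjusted p = 1.35e-05). Hmox1, haem oxygenase, rose by 2.79. Nqo1, a quinone reductase and common NRF2 marker, overlapped (0.31, adjusted p = 0.231), and Gstm1, a glutathione transferase, fell by 1.16.

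Of 15 glycolysis genes, 11 rose and 1 fell (median 0.86). Slc2a1, the glucose transporter GLUT1, stood at 58.7, 52.8 and 55.9 CPM in the PBS libraries and 133, 161 and 178 CPM with MSU (log2 fold change 1.49, SE 0.12, adjusted p = 3.17e-05). Pfkl, the liver-type phosphofructokinase, stood at 48.4, 47.4 and 47.9 CPM against 101, 112 and 110 CPM (1.17, SE 0.09, adjusted p = 2.26e-05). Pfkm, the muscle type of the same enzyme, moved the other way, from 137, 114 and 130 CPM to 60.8, 77.1 and 76.8 CPM (-0.83, SE 0.12, adjusted p = 0.000659). The groups were apart for these 3 genes. Of 80 nuclear genes of oxidative phosphorylation, 3 rose and 5 fell (median 0.03), and of 12 encoded by mitochondrial DNA 0 passed (median -0.07). Of 13 genes of the tricarboxylic acid cycle, 4 rose and 0 fell (median 0.16), such as Dlst, a subunit of the oxoglutarate dehydrogenase complex (0.61).

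Among signalling pathways of tissue patterning, Hedgehog and Wnt genes fell more often than they rose, and BMP, TGF-beta and Notch genes were more evenly divided. Of 12 Hedgehog genes, 9 fell and 0 rose (median -0.95), and their sum was 856, 868 and 949 CPM in the PBS libraries and 444, 407 and 475 CPM with MSU. Gli1, the target and effector used as the readout of the pathway, stood at 48.5, 40 and 41.4 CPM against 12.1, 10.8 and 10.4 CPM (log2 fold change -1.96, SE 0.13, adjusted p = 1.49e-05). Cdon, a coreceptor, stood at 219, 162 and 241 CPM against 35.7, 33.2 and 60.6 CPM (-2.27, SE 0.28, adjusted p = 0.000996). Groups of both were apart. Ptch1, the main receptor and itself a target, did not pass (log2 fold change -0.23, adjusted p = 0.0555), except with upper quartile scaling (-0.33, adjusted p = 0.014).

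Of 25 Wnt pathway genes, 13 fell and 4 rose (median -1.04), and 2 rose without MSU 1, MSU 2 or MSU 3. Axin2, the usual target gene, stood at 32.4, 38.3 and 39.9 CPM in the PBS libraries and 13.2, 11.7 and 11 CPM with MSU (log2 fold change -1.62, SE 0.13, adjusted p = 3.8e-05). Secreted modulators of the pathway differed in direction. Dkk2, a secreted modulator of Wnt receptors, stood at 25.7, 30 and 34.7 CPM against 6.48, 7.32 and 5.73 CPM (-2.20, SE 0.17, adjusted p = 2.6e-05), and Sfrp2, which binds Wnt ligands, fell by 2.46. Its relative Sfrp1 rose, from 43.8, 52.9 and 60.4 CPM to 66.8, 73.6 and 86.8 CPM (0.53, adjusted p = 0.0136), a call lost without MSU 3. Wif1, another inhibitor, had overlapping groups (-0.23, adjusted p = 0.631), but was lower without MSU 1 (-0.73, adjusted p = 0.0023). Wnt2, a ligand, fell by 3.70 from 1.91, 2.91 and 2.82 CPM, and Fzd7, a receptor, fell by 1.34.

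Of 25 genes of the BMP and TGF-beta pathways, 7 rose and 9 fell (median 0.07). The ligands Gdf10, Bmp4 (-1.11), Bmp6 (-1.38) and Tgfb3 (-1.64) fell. Fst, follistatin, which traps activin, stood at 40.9, 46.4 and 43.5 CPM against 105, 116 and 125 CPM (log2 fold change 1.40, SE 0.10, adjusted p = 2.06e-05). Id2, a target gene, rose by 0.84. Of 13 Notch genes, 3 rose and 4 fell (median -0.25), or 2 fell without PBS 1, PBS 3 or MSU 1 and with the replicate block. Jag2, a ligand of keratinocytes and vessels, fell by 1.03 and Notch2, a receptor, rose by 0.59. Of 12 genes of insulin-like growth factor and growth hormone, 4 rose and 6 fell (median -0.29). The receptor gene Igf1r rose by 0.78, the binding protein gene Igfbp3 fell by 0.94, and the ligand gene Igf1 overlapped (-0.05, adjusted p = 0.875).

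Hox genes, which keep the positional identity of limb and skin fibroblasts, were lower in 15 of the 33 that passed the filter and higher in 0 (median -0.75). Hoxa9, a gene of the limb and trunk, stood at 98.7, 71.5 and 84.9 CPM in the PBS libraries and 39.3, 33.6 and 29.7 CPM with MSU (log2 fold change -1.31, SE 0.15, adjusted p = 0.000161). Hoxa7 stood at 35, 31 and 32.1 CPM against 13.8, 15.5 and 15 CPM (-1.15, SE 0.12, adjusted p = 0.000104). No library of one group reached the other. Hoxc5 and Hoxd9, from other clusters, fell by 1.51 and 1.01, and 10 to 13 of the family fell in the fits that left out 1 library.

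Of 18 circadian clock genes, 5 rose and 8 fell (median -0.26), and 3 rose without PBS 3, MSU 1 or MSU 3. Nr1d1, the repressor REV-ERB alpha, stood at 158, 158 and 135 CPM in the PBS libraries and 42, 53.9 and 61.4 CPM with MSU (log2 fold change -1.52, SE 0.14, adjusted p = 6.82e-05). Its fellow output genes Dbp, Hlf and Tef, a family of related transcription factors, fell by 2.13, 1.86 and 1.02. Bhlhe40, a repressor that many stimuli induce, stood at 125, 132 and 133 CPM against 352, 408 and 471 CPM (1.66, SE 0.12, adjusted p = 2.17e-05), and Cry1, a core repressor, rose by 0.85. Whether all animals were killed at the same time of day is not given in the sources used here.

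Genes of coagulation and fibrinolysis rose in 10 of 14 cases and fell in 2 (median 0.82), and 6 rose without PBS 3. F10, coagulation factor X, stood at 2.93, 4.63 and 1.79 CPM in the PBS libraries and 33.7, 47.1 and 57.1 CPM with MSU (log2 fold change 3.85, SE 0.36, adjusted p = 0.000259). Plaur, the urokinase receptor of leukocytes, stood at 22.1, 24.1 and 21 CPM against 120, 215 and 369 CPM (3.38, SE 0.46, adjusted p = 0.00356). The falls, which included F3, tissue factor (-0.61), numbered 0 without PBS 2, PBS 3, MSU 1 or MSU 2 and 1 without PBS 1, without MSU 3 or with RLE scaling. Of 14 complement genes, 5 rose and 2 fell (median 0.19). C5ar1, the receptor of the chemoattractant C5a, rose by 2.18 and C3, the central component, by 0.79, while C7, a component of the membrane attack complex, fell from 281, 280 and 338 CPM to 116, 118 and 160 CPM (-1.19).

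All 13 genes of MHC class I and peptide loading rose (median 1.09). B2m, the light chain of class I molecules, stood at 897, 608 and 616 CPM in the PBS libraries and 1280, 1540 and 1690 CPM with MSU (log2 fold change 1.09, SE 0.18, adjusted p = 0.00121). Tapbp, tapasin, which holds class I molecules at the peptide transporter, stood at 155, 125 and 124 CPM against 311, 330 and 334 CPM (1.27, SE 0.11, adjusted p = 5.08e-05). PBS 1 was the highest control for both, and 11 to 13 of the list rose in the fits that left out 1 library. The call of H2-K1, a class I heavy chain gene, was lost without PBS 2, PBS 3, MSU 2 or MSU 3. It was lost too with the replicate block (adjusted p = 0.0725), with upper quartile scaling and without the count filter.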

How the data were processed

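RNA from 6 ankle samples was sequenced. The deposited table holds raw read counts per Ensembl gene, which the authors did not normalize, since every value is a whole number and library totals differ. The tools used were HISAT2, HTSeq 0.11.3 and DESeq2 and the genome build was mm39, per the submitters' processing notes. Their settings, the annotation release and the use of strand are not given in the sources used here, so genes that overlap others may have lost counts. TRIzol extraction and a VAHTS mRNA library kit are named in the labels' protocols. Of 55359 gene IDs, 94.1% matched a symbol in GENCODE M21. Promoter windows came from RefSeq (GRCm38.p6), an older build than that of the files, and were used for sequence only.

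Genes were kept by filterByExpr (minimum count 10, minimum total count 15), scaled by TMM, and compared in edgeR 4.0.16 (R 4.3.3) by its robust quasi-likelihood test. P-values were adjusted by Benjamini-Hochberg over all 17690 tested genes, with a threshold of 0.05. Adjusted p values come from edgeR where no other tool is given. CPM are counts over the effective library size, and a count of 3 equals 0.0727 to 0.282 CPM over the libraries. List counts and medians come from the same fit, with no test of a list. The 63 lists and the rules were chosen with earlier results of these data known. The lists had 1080 entries, of which 1076 matched a gene (Krt85, Ahsp, Aldoa and Ddit3 did not) and 1048 were tested, with 20 genes in more than 1 list. By rule, named genes are those 15 rises and 15 falls that were largest, if called, above 5 CPM on average, with no overlap of groups and no predicted gene model, and in each list the first 3 members and up to 5 more with the smallest p-values. A gene outside this rule is said to be chosen for its value. Some genes that the rule names are not reported here.

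Chi-square per degree of freedom between libraries of a group was at least 20.8, and none was a copy. The titles number the libraries 1 to 3 in each group, and the text and the replicate block use those numbers. The labels do not say that they mark a shared day or litter. The descriptions number the same libraries 2, 3 and 4 (PBS) and 1, 4 and 5 (MSU), so they share only the number 4, of PBS 3 and MSU 2, and give no block. The alternatives were RLE and upper quartile scaling, no count filter, a mean count of at least 10, a replicate block, a test against a 1.5-fold change, removal of GC content and gene length trends, limma-voom (limma 3.58.1), DESeq2 1.42.0 and leaving out each library. A difference of response from the other tissues was not analysed here.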

Additional observations from a re-analysis of the deposited data

How the results depend on the processing

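The calls over all genes, 3823 higher and 3833 lower, stayed within 1.5 times under every alternative run except the test against a 1.5-fold change, which gave 1504 and 1526. Leaving out each library gave 3164 to 3503 higher and 3068 to 3534 lower. The replicate block gave 3709 and 3759. Deviations of libraries with the same number in the titles correlated at 0.23, 0.15 and -0.065. MSU 1 correlated best with its own control, and MSU 2 and MSU 3 better with another control than with their own. With 3 libraries a group, these values cannot decide whether the numbers pair the samples. PBS 3 and MSU 2, which share a number in the descriptions, correlated at 0.26. Upper quartile scaling moved the median log2 fold change of all genes from -0.02 to -0.12 and the part of the calls that were rises from 49.9% to 40.6%, and DESeq2 called 3958 and 3964. Of the 457 named gene values, 1 reversed: Rpl36 had 0 with GC content and gene length trends removed, and the cause was not tested. Calls of named genes were also lost. The test against a 1.5-fold change lost 134. Leaving out PBS 3 lost 35, leaving out MSU 3 lost 31 and gained 7, and leaving out MSU 2 lost 30 and gained 5. Removal of GC content and gene length trends lost 20 and gained 9, and DESeq2 lost 1 and gained 12. Of 126 list counts, 65 moved by over 1.5 times in the test against a 1.5-fold change, 16 with GC content and gene length trends removed, 14 without a count filter, 11 with upper quartile scaling, 8 with the replicate block and 7 with DESeq2, many of them counts under 5. Leaving out PBS 3 or MSU 3 moved 22 and 23. In the least deep library, 3 counts are 0.282 CPM, which limits genes that stood near that level in both groups.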

Other observations

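Among 14 targets of p53, the transcription factor of DNA damage and stress, 8 rose and 1 fell (median log2 fold change 0.68). Fas, the death receptor, stood at 16, 17.9 and 11.3 CPM in the PBS libraries and 71, 82.9 and 83.5 CPM with MSU (2.38, SE 0.17, edgeR adjusted p = 2.06e-05), and Gdf15, a stress hormone, at 2.23, 1.73 and 1.93 CPM against 6.36, 7.47 and 7.33 CPM (1.83, SE 0.22, adjusted p = 0.000252). Cdkn1a, the cell cycle inhibitor most used as a p53 readout, had overlapping groups (0.61, adjusted p = 0.052). It passed without PBS 2 (0.81, adjusted p = 0.0114), without MSU 1 (0.76, adjusted p = 0.0223), with the replicate block (adjusted p = 0.0245), by DESeq2 (adjusted p = 0.00941), by limma-voom, without a count filter and with GC content and gene length trends removed. The fall was not called without PBS 1 or MSU 3 or with GC content and gene length trends removed.

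Of 18 cell cycle genes, 3 rose and 1 fell (median 0.15), and 5 rose without PBS 2. Mki67, the proliferation marker, stood at 65.7, 83.5 and 64.6 CPM in the PBS libraries and 70, 78.2 and 55.8 CPM with MSU (log2 fold change -0.07, adjusted p = 0.738), and Pcna, the sliding clamp of replication, at 74, 66.5 and 72.4 CPM against 109, 99.4 and 111 CPM (0.59, SE 0.09, adjusted p = 0.00089). The fall, E2f1, a cell cycle transcription factor (-0.67), was not called without PBS 1, PBS 3, MSU 2 or MSU 3 or with GC content and gene length trends removed. Of 20 lysosome genes, 9 rose and 2 fell (median 0.20), or 1 fell without PBS 1, PBS 2, MSU 1 or MSU 3. Ctsz, a cathepsin of macrophages and other cells, rose from 139, 143 and 122 CPM to 286, 267 and 268 CPM (1.03), while Ctsd, a widely expressed cathepsin, overlapped (-0.14, adjusted p = 0.306).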
